A study of Rattus norvegicus with 22 samples.

Results

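The interaction of WIN and cocaine compares 2 responses to cocaine in the prefrontal cortex of the rat: the difference between WIN+cocaine and WIN, minus the difference between cocaine and control. It was computed for each gene on log2(FPKM + 1), where FPKM is reads corrected for gene length and for the depth of the library. A value of 1 means that the cocaine-treated to untreated ratio, in FPKM + 1, was 2 times as high with WIN as without. The fold ratios given below are likewise ratios of FPKM + 1, which understate changes in FPKM at low expression. Of the 29663 genes in the table, 15326 reached an FPKM of 1 in 3 or more of the 12 libraries and were tested. They comprise 14048 genes with Ensembl rat IDs and 1278 transcripts with IDs of another series, taken as unannotated transcripts.

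The 4 groups were control, WIN, cocaine and WIN+cocaine, each with 3 RNA sequencing libraries of male Sprague-Dawley rats. WIN is a synthetic cannabinoid receptor agonist, and the series' title places the cannabinoid exposure in adolescence, before a first encounter with cocaine. Doses, ages, the interval between the drugs and the vehicle of the controls are not given in these sources, nor is it said whether a library is 1 animal. The p-values therefore measure the spread between these libraries, which may be technical. The libraries are of bulk tissue, in which fewer cells of a type and less RNA per cell cannot be told apart.

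The prefrontal cortex directs planning and restraint and sends glutamatergic projections to the nucleus accumbens, a target of addictive drugs. Cocaine blocks the transporters that clear dopamine and other monoamines from the synapse, and the resulting receptor signalling changes transcription in cortical neurons. Agonists such as WIN act on the cannabinoid receptor CB1, which sits mainly on presynaptic terminals and lowers transmitter release. An interaction asks whether earlier exposure to the one drug altered the transcriptional response to the other. A positive value means a more positive cocaine change with WIN: a larger increase, a smaller decrease, or an increase in place of a decrease.

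The recovered depth was 20852442 to 27677077 reads per library, with a median of 488 reads for a tested gene. The 4 groups overlapped in depth. The median SD between replicates was, on the log2 scale, 0.15 in WIN, 0.13 in cocaine, 0.12 in WIN+cocaine and 0.10 in control, and WIN also holds the library with the lowest weight in limma (WIN replicate 3, at 0.30). The deposited table does not pair IDs with gene names, and 0 of its 29663 IDs matched the reference table. The cortical, glial and vascular marker lists, which would check the labelled tissue, were therefore not analysed here.

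No gene passed the test of the interaction. Limma called 0 of 15326 genes at an adjusted p under 0.05 (0.00%), the lowest adjusted p was 0.539, and limma voom on the recovered reads called 0 with equal and 0 with quality weights. An unadjusted p under 0.05 was found for 1382 genes, 9.02% of those tested, where that level gives 766 by itself. Of these, 810 were positive (5.29%) and 572 negative (3.73%). The excess did not extend to smaller p: 143 genes lay under 0.01, where 153 would by level alone, and 10 under 0.001, where 15 would. After median ratio rescaling the division of the genes under 0.05 turned to 648 positive and 711 negative, and without WIN+cocaine replicate 2 to 487 and 542. Quantile normalization kept the lean to positive values, at 873 and 609.

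Most interactions were small. The central value over all tested genes was 0.02, with quartiles of -0.15 and 0.18 and a 5th and 95th percentile of -0.44 and 0.40. A ratio of at least 1.5-fold between the 2 cocaine changes was found in 615 genes, 216 of them positive and 399 negative. At least 2-fold there were 178 genes, 61 positive and 117 negative. The large values thus leaned to the negative side, whereas the genes under an unadjusted p of 0.05 leaned to the positive side. Genes with a large ratio were weakly expressed: their median FPKM was 4.02 at 2-fold or more, beside 9.76 over all tested genes, and 99 of the 178 had a mean FPKM under 5. An unadjusted p under 0.05 was found in 252 of the 615 and 74 of the 178, beside 9.02% of all tested genes. The p depends on the size of the interaction, so a higher share follows in part from the choice.

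The intervals state which sizes of interaction the values of these libraries allow in a single gene. They do not state which sizes the adjusted test would have called. The standard error of an interaction had a median of 0.16 and ran from 0.11 to 0.30 between its 10th and 90th percentiles. In 13793 genes (90.0%) the 95% interval lay within a 2-fold ratio in either direction, and in 8924 (58.2%) within a 1.5-fold ratio. These are intervals for single genes, with no adjustment for their number. They bound the ratio of FPKM + 1, so in weakly expressed genes a larger ratio of FPKM can lie within them. For the other 1533 genes the interval reached or lay beyond a 2-fold ratio in at least 1 direction.

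In most genes the cocaine change without WIN was the larger of the 2 changes that make up the interaction. Over all tested genes the median absolute change was 0.18 for cocaine against control, 0.08 for WIN+cocaine against WIN, 0.07 for WIN against control and 0.12 for WIN+cocaine against cocaine. At 1.5-fold or more there were 510 genes in the first of these, 192 in the second, 151 in the third and 320 in the last. Some of these comparisons share libraries; cocaine against control and WIN+cocaine against WIN have none in common, nor do WIN against control and WIN+cocaine against cocaine. Of all tested genes, 11187 (73.0%) had the larger absolute cocaine change without WIN. That difference between the 2 changes was not tested, and without WIN replicate 3 the medians were 0.18 without and 0.13 with WIN.

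**Figure D1:**
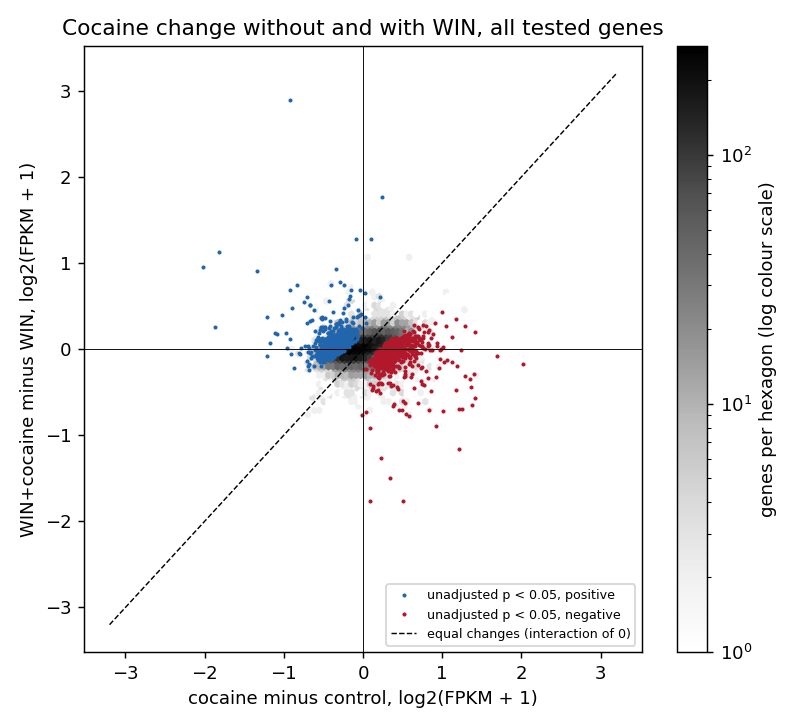
Each gene's cocaine change without WIN (x axis, cocaine minus control) and with WIN (y axis, WIN+cocaine minus WIN), both on log2(FPKM + 1); grey hexagons count all 15326 genes on a log colour scale, and coloured points are the 1382 genes with an unadjusted interaction p under 0.05. The cloud is wider along x than along y (median absolute change 0.18 against 0.08), and the coloured genes lie off the dashed line of equal changes mainly to the left (positive) and right (negative).

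The interaction holds both cocaine changes, so the values of the genes under an unadjusted p of 0.05 were fixed in part by their choice and are given as a description. In the 810 positive genes the median cocaine change was -0.35 without WIN and 0.05 with WIN. The median WIN change in these genes was -0.13 without cocaine and 0.26 with it. The 572 negative genes mirrored this, with median cocaine changes of 0.39 without and -0.05 with WIN, and median WIN changes of 0.14 without and -0.29 with cocaine. Without WIN, cocaine was below control in 804 of the 810 and above it in 571 of the 572. With WIN, WIN+cocaine was above WIN in 574 of the 810 and below it in 369 of the 572. The cocaine changes without and with WIN had opposite signs in 936 of the 1382 genes (67.7%), beside 5610 of all tested genes (36.6%). The median change with WIN was near 0 in either set, but over genes of both signs, and its size in single genes was not summarised.

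For each gene, the group whose mean lay farthest from the mean of the other 3 was found. Cocaine was that group in 1053 of the 1382 genes (76.2%), control in 188 (13.6%), WIN+cocaine in 104 (7.53%) and WIN in 37 (2.68%). Over all tested genes cocaine was already the farthest group in 52.3%, control in 20.7%, WIN+cocaine in 14.4% and WIN in 12.6%. In these terms the 1382 genes were mostly those in which the cocaine group stood apart from control, WIN and WIN+cocaine together. The share for cocaine was 58.6% without WIN replicate 1, 86.2% without cocaine replicate 3 and 65.0% with library weights.

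The libraries were placed along these 2 sets of genes by the median difference of each library from the gene's mean over the 12. In the positive set the 3 cocaine libraries lay at -0.26, -0.23 and -0.13, against 0.07, 0.24 and 0.12 for the 3 control libraries. The WIN+cocaine libraries lay at 0.00, 0.08 and 0.09, above all 3 cocaine libraries and below 2 of the 3 controls. WIN replicates 1 and 2 lay at 0.12 and 0.04, but WIN replicate 3 was found at -0.14, beside cocaine replicate 3. The negative set gave the reverse order, with the cocaine libraries at 0.30, 0.24 and 0.13, the controls at -0.12, -0.22 and -0.14, WIN+cocaine at 0.01, -0.07 and -0.10, and WIN at -0.12, -0.02 and 0.09. Over all tested genes the library medians stayed between -0.03 and 0.03.

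**Figure D2:**
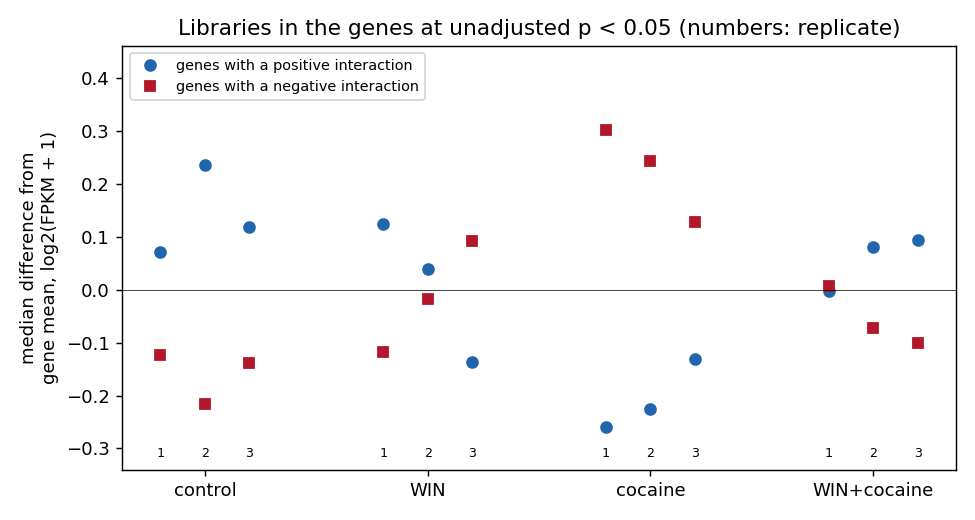
Median difference of each library from the gene's mean over the 12 libraries (y axis, log2(FPKM + 1)) in the 810 positive (circles) and 572 negative (squares) genes at an unadjusted interaction p under 0.05, by group; the numbers under the points are replicates. The 3 cocaine libraries lie at -0.26 to -0.13 in the positive set and WIN replicate 3 lies with them at -0.14, apart from the other WIN libraries.

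A stricter description needs all libraries to agree: every cocaine value on one side of every control value, and every WIN+cocaine value on one side of every WIN value. The cocaine and control values did not overlap in 6132 genes (40.0%), and the WIN+cocaine and WIN values did not overlap in 1143 (7.46%). Both held with opposite directions in 50 genes (0.326%), of which 35 were lower with cocaine alone and higher with cocaine after WIN (0.228%) and 15 the reverse (0.0979%). Both held with the same direction in 285 genes (1.86%), 208 higher and 77 lower with cocaine in both. Groups of 3 values can also separate at random, and these counts were not set against that level. The 50 opposed genes had a median mean FPKM of 7.86 and a median absolute interaction of 0.40, and 2 of them were unannotated transcripts. An unadjusted p under 0.05 was found in 43, which follows in part from the choice, since the same libraries make up the interaction. With 1 library less a pair of groups separates more readily, and over the left-out libraries the opposed count ran from 71 without control replicate 2 to 254 without WIN+cocaine replicate 1, and leaving out WIN replicate 1 gave 246. The count in the same direction was 2986 without WIN replicate 3 and at most 677 without any other library.

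In the 285 genes separated in the same direction, the 2 cocaine changes were close in size. That choice leaves out opposed changes, so the likeness and the small interactions follow in part from it. The 208 higher genes had a median change of 0.24 without and 0.19 with WIN, and the 77 lower genes one of -0.27 without and -0.19 with WIN. Their median interactions were -0.07 and 0.06, and 7 of the 285 had an unadjusted p under 0.05.

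A set of 4 IDs illustrates the interaction at the level of single libraries. They are the 2 Ensembl IDs with the smallest interaction p among positive and among negative values, given a mean FPKM of 2 or more, so their separation follows from the choice, and none passed the adjusted test. No name or function can be given for them.

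ENSRNOG00000025156 had FPKM values of 6.31, 2.87 and 3.95 in control and 2.30, 2.67 and 0.303 in WIN. With cocaine it had 0.755, 0.374 and 0.334, and with WIN+cocaine 4.65, 4.40 and 4.34. Cocaine and WIN alone each lay below all controls, whereas WIN+cocaine lay above every WIN library and within the range of the controls. The WIN change without cocaine was -1.05 (SE 0.34). The group means were 4.38 ± 1.76 for control, 1.76 ± 1.27 for WIN, 0.487 ± 0.232 for cocaine and 4.47 ± 0.163 for WIN+cocaine (SD, n = 3). The cocaine change was -1.82 without WIN and 1.12 with WIN, each with an SE of 0.34. The interaction was 2.94 with an SE of 0.48 and a 95% interval of 1.90 to 3.98, the smallest unadjusted p of all genes at 5.39e-05, and an adjusted p of 0.539 in limma. Only 6 to 119 reads per library stand behind these values, and the size depends on the pseudocount: a pseudocount of 0.1 gave 4.64 and limma voom 4.92. WIN replicate 3 has the 6 reads, and without it the cocaine change with WIN was 0.65, the interaction 2.47 and the adjusted p 0.108.

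ENSRNOG00000004527 was the other positive ID, with FPKM values of 10.4, 11.2 and 9.39 in control and 9.06, 6.52 and 8.34 in WIN. The cocaine libraries had 6.11, 8.89 and 7.33, and the WIN+cocaine libraries 13.1, 11.1 and 12.1. Each drug alone was below every control, and the values under WIN+cocaine were above every WIN and cocaine library. Group means were 10.3 ± 0.895 for control, 7.97 ± 1.31 for WIN, 7.44 ± 1.39 for cocaine and 12.1 ± 0.987 for WIN+cocaine (SD, n = 3). The cocaine change was -0.43 without and 0.56 with WIN (SE 0.14 each). The interaction was 0.99 with an SE of 0.19 and a 95% interval of 0.57 to 1.41, with an unadjusted p of 0.000257 in limma and an adjusted p of 0.539. It is the one ID of the 4 in which WIN+cocaine, not cocaine, was the group farthest from the rest. Its reads numbered 96 to 241 per library.

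ENSRNOG00000048528, the first negative ID, had FPKM values of 20.5, 8.29 and 9.68 in control and 25.4, 27.9 and 19.8 in WIN. It had 30.1, 31.0 and 28.0 in cocaine and 11.0, 17.4 and 15.9 in WIN+cocaine. Cocaine alone exceeded all controls, and WIN+cocaine lay below all WIN and all cocaine libraries. The means were 12.8 ± 6.69 for control, 24.4 ± 4.12 for WIN, 29.7 ± 1.51 for cocaine and 14.8 ± 3.34 for WIN+cocaine (SD, n = 3), from 291 to 1252 reads per library. The cocaine change of 1.25 without WIN stood against one of -0.69 with WIN (SE 0.27 each). The interaction was -1.95 with an SE of 0.38 and a 95% interval of -2.77 to -1.13, with an unadjusted p of 0.000248 in limma and an adjusted p of 0.539. Control replicate 1, at 20.5, was more than 2 times as high as the other controls. Without it the interaction was -2.32 with an adjusted p of 0.0221, the one call of that fit.

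ENSRNOG00000033299 was the more abundant of the negative IDs by FPKM, with 60.0, 51.5 and 65.1 in control and 71.9, 64.3 and 86.5 in WIN. The values were 89.8, 97.9 and 109.4 in cocaine and 58.6, 78.5 and 56.5 in WIN+cocaine. Cocaine was above all libraries of the other 3 groups, whereas WIN and WIN+cocaine overlapped. Means were 58.9 ± 6.87 for control, 74.2 ± 11.3 for WIN, 99.0 ± 9.86 for cocaine and 64.5 ± 12.1 for WIN+cocaine (SD, n = 3). The cocaine change was 0.74 without WIN and -0.20 with WIN (SE 0.14 each), and the interaction -0.95 with an SE of 0.20, a 95% interval of -1.39 to -0.50, an unadjusted p of 0.000595 in limma and an adjusted p of 0.539. In the negative set the cocaine mean was the farthest from the mean of the other 3 groups in 417 of the 572 genes. Over all tested genes it was so in 52.3%. How many genes had all cocaine libraries apart from the other 3 groups was not counted. Reads ran from 219 to 584 per library.

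**Figure D3:**
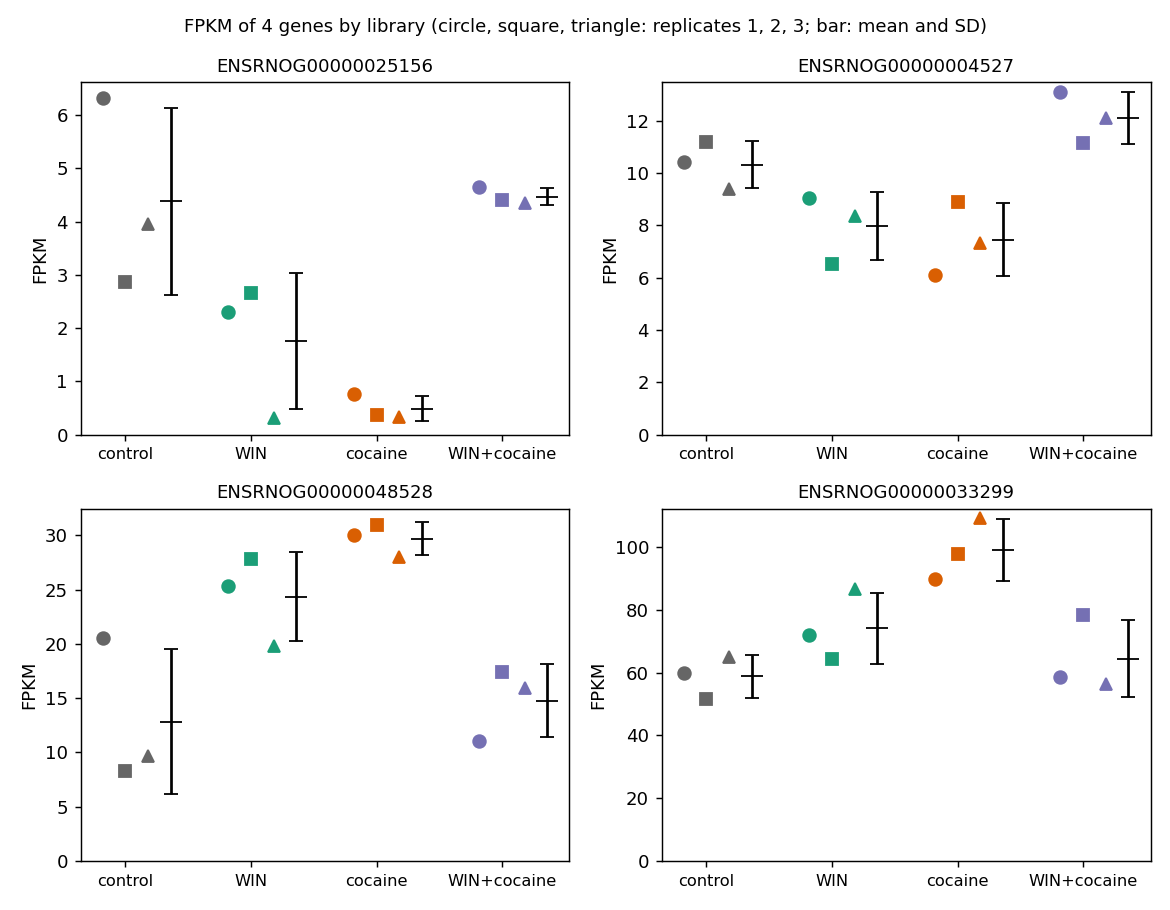
FPKM (y axis, from 0) of the 4 IDs in each library by group; circles, squares and triangles are replicates 1, 2 and 3, and the black bar beside them is the mean with its SD (n = 3). In the upper panels cocaine is low and WIN+cocaine at or above control; in the lower panels cocaine is highest and WIN+cocaine lies near control.

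The share of genes under an unadjusted p of 0.05 was higher at higher expression. The tested genes were divided into 4 equal classes by mean FPKM, which ran from 0.323 to 3.29 in the lowest and from 25.6 to 13369 in the highest. The share was 6.42% in the lowest class, then 8.74%, 10.3% and 10.6%. Positive and negative genes were nearly even in the lowest class, at 126 and 120, and stood at 207 and 128, 246 and 150, and 231 and 174 in the next 3. Large ratios showed the opposite order, with 268, 173, 111 and 63 genes at 1.5-fold or more from the lowest to the highest class.

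Precision was also higher there. The median SD between replicates was 0.18, 0.15, 0.13 and 0.12 from the lowest to the highest class. Counting of reads alone would give a median SD of 0.10, 0.07, 0.05 and 0.03, from median depths of 74.7, 306.2, 805.6 and 2463 reads per library. In every class the replicates differed by more than the counting of reads, and in the highest class depth was a small part of the spread. The share of genes whose 95% interval lay within a 1.5-fold ratio was 37.5% in the lowest and 73.0% in the highest class.

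**Figure D4:**
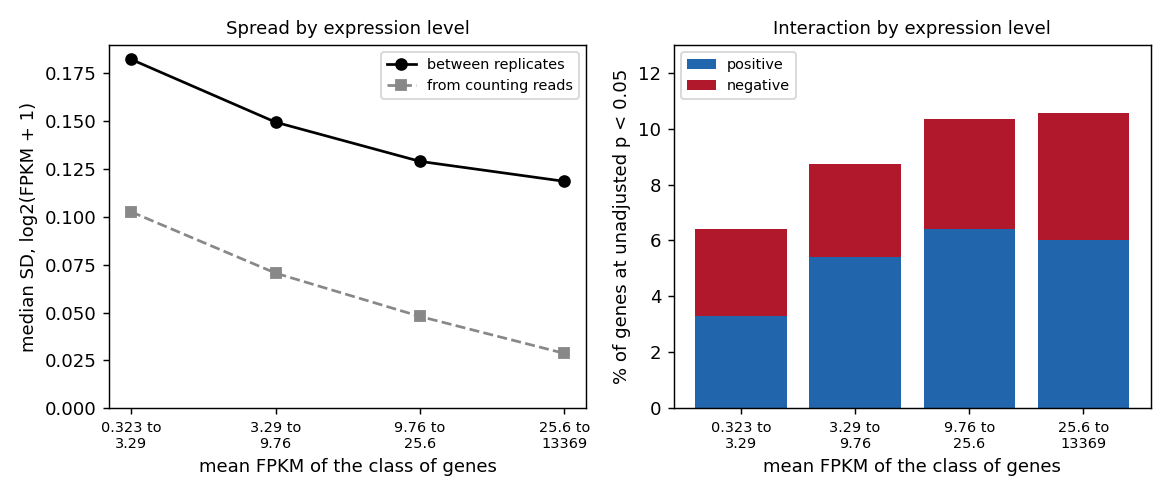
Left, median SD on log2(FPKM + 1) between replicates (circles) and from counting of reads alone (squares) in 4 equal classes of mean FPKM; right, percentage of genes in each class with an unadjusted interaction p under 0.05, positive and negative stacked. The replicate SD falls from 0.18 to 0.12 and the share of genes goes from 6.42% to 10.6%.

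Unannotated transcripts were also counted apart from genes with Ensembl IDs. Of the 1278, 62 (4.85%) had an unadjusted p under 0.05, beside 1320 of 14048 Ensembl genes (9.40%); this difference was not tested. The 62 were 47 positive and 15 negative, where Ensembl genes stood at 763 and 557. Positive values stayed the more frequent after median ratio rescaling, at 42 and 22, and after quantile normalization, at 50 and 21. The division was 41 and 27 with library weights, and 44 and 39 without WIN+cocaine replicate 1. A limma prior variance that does not follow expression level gave 64 and 23, while the count over all tested genes fell to 1316. The lower share in unannotated transcripts thus depends in part on that setting. The median interaction was 0.05 in unannotated transcripts and 0.01 in Ensembl genes. It was made up of a median cocaine change of -0.05 without and 0.00 with WIN in the former, and of -0.02 and 0.00 in the latter. Unannotated transcripts are weakly expressed, with a median mean FPKM of 1.98 against 11.0, and 840 of them fall in the lowest class of expression. In that class 3.93% of unannotated transcripts and 7.12% of Ensembl genes were under an unadjusted p of 0.05, with median SDs between replicates of 0.16 and 0.19.

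Single libraries moved the count of genes under an unadjusted p of 0.05. Leaving out control replicate 2 gave 596, leaving out WIN replicate 3 gave 789, WIN+cocaine replicate 3 gave 857 and cocaine replicate 1 gave 899, whereas the fit lacking WIN replicate 1 gave 2062. Of the 1382 genes, 552 remained under that p without control replicate 2 and 1193 without WIN replicate 1. In all 12 of the left-out fits 385 genes remained, 216 positive and 169 negative, and 885 did so in at least 6 of them. All 1382 kept their sign in each of these fits, which reuse 11 of the 12 libraries.

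**Figure D5:**
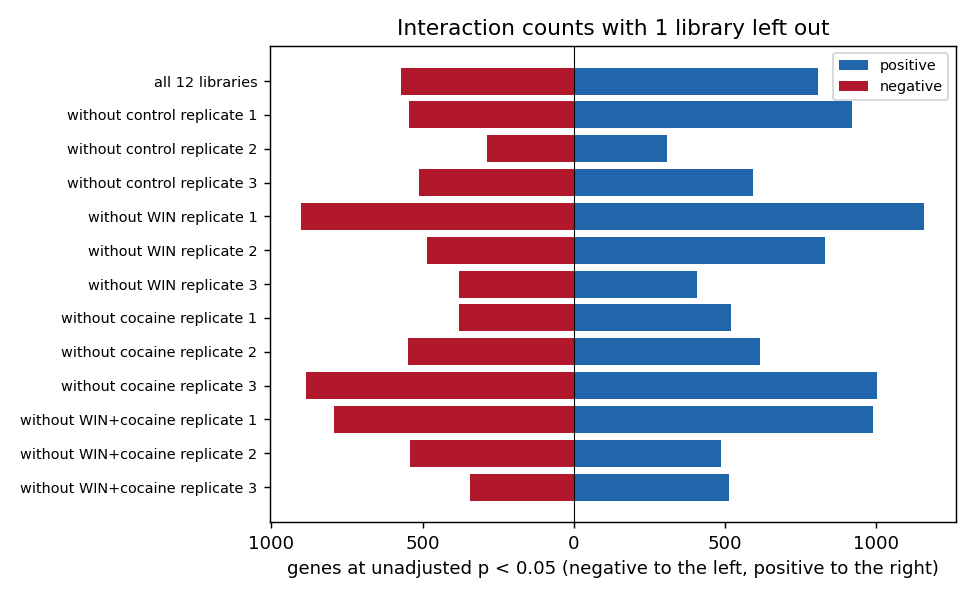
Number of genes with an unadjusted interaction p under 0.05 (x axis; negative interactions to the left of 0, positive to the right) with all 12 libraries and with each library left out in turn. The total runs from 596 without control replicate 2 to 2062 without WIN replicate 1.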

How the data were processed

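RNA of 12 prefrontal cortex libraries was analysed. The authors deposited 1 table of FPKM values; HISAT2, HTSeq and DESeq are listed in the submitters' processing notes with no versions. A stranded kit was used per the labels' protocols; no build, annotation or strand setting is given in the sources used here, and antisense or near-identical genes may share reads. Whole reads were recovered from the FPKM steps for 24197 of 24197 genes above 0. No pair of libraries agreed within sampling noise (chi-square per degree of freedom 7.59 to 58.3, over genes with 20 or more reads in the pair).

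Limma 3.58.1 in R 4.3.3 was fitted to log2(FPKM + 1), which understates changes of low genes, with 1 mean for each group, a prior variance that follows expression level, and Benjamini-Hochberg adjustment over 15326 genes. The fit was tested on simulated data. Calls needed an adjusted p under 0.05. The SD from counting assumed Poisson reads. Named genes were to be the 12 with the smallest p in each direction, a fixed set and members of 33 gene lists, all by symbol. With 0 of 29663 IDs matched to the GRCr8 table of 47357 genes, the fallback of 2 Ensembl IDs in each direction was used. Comparison, lists and rule were chosen with earlier results of these data known. ATAC libraries and the nucleus accumbens RNA were not used here.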

Additional observations from a re-analysis of the deposited data

Results flagged for a closer look

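Of the 4 IDs, 3 had cocaine changes that pointed opposite ways with and without WIN, with no overlap between the groups compared. In ENSRNOG00000025156 (interaction 2.94) and ENSRNOG00000004527 (0.99) all cocaine values lay below the controls and all WIN+cocaine values above WIN; in ENSRNOG00000048528 (-1.95) the directions were the reverse. The difference itself was tested as the interaction, where limma gave each an adjusted p of 0.539. They were chosen for a small p in that test. Such opposed separation was found in 50 genes (0.326%) among the 15326, a count not set against a random level.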

How the results depend on the processing

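The count of called genes was 0 in 22 of 24 alternatives, a threshold of 0.10 included. It was 0 to 1 over the left-out replicates: 1 gene was called in the absence of control replicate 1 (ENSRNOG00000048528, adjusted p 0.0221) and 1 without control replicate 2, another ID that is not named here (interaction 2.95, adjusted p 0.0106 in limma, mean FPKM 3.42). The cause was not tested. At an unadjusted p under 0.05 the count was 1052 to 1841 in the alternatives that keep all libraries, and 596 to 2062 over the left-out replicates; apart from the fewer libraries, the cause was not tested. Without a filter 24197 genes were tested and 1841 lay under that p; with a minimum FPKM of 5, 1052 of 10569 did. Each of the 4 IDs kept its sign in the alternatives in which it was tested, 22 for ENSRNOG00000025156 and 23 for each other, at adjusted p of 0.0221 to 0.835; they were chosen on these libraries, so this adds no support. With the replicate block 0 genes were called and 1227 lay under an unadjusted p of 0.05, 675 positive and 552 negative. Libraries that share a number had deviations whose correlation ran from -0.281 to 0.196 (median 0.01, beside -0.02 for other numbers), so the numbers were not taken as pairs. The alternatives for medians of gene lists were not run, since the lists could not be matched. Both voom fits were chosen after the data were examined. With 3 libraries a group, the spread between replicates exceeded that from counting reads in every class of expression.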
